A study of Mus musculus with 26 samples.

Results

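The Hippo pathway was followed through 10 genes in mouse liver tumours and control livers: the kinases Lats1 and Lats2, the coactivators Yap1 and Wwtr1 (whose protein is called TAZ), the transcription factor Tead1, and the target genes Ctgf (also Ccn2), Cyr61 (also Ccn1), Ankrd1, Amotl2 and Axl. They were chosen by name as a pathway, with earlier results of these data known, and all 10 were found among the 35976 rows of a single deposited table of RNA sequencing counts. The study asked how the zone of the liver lobule in which a tumour starts bears on hepatocellular carcinoma. Tumours were induced in mice of a mixed C57BL/6J and Swiss Webster background by tamoxifen on postnatal day 28, and the mice were followed for 6 to 12 months.

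Cyp1a2_CA tumours (10 libraries of 9 animals) carried Cyp1a2-CreERT2, Ctnnb1(ex3)fl/+ and Arid2fl/fl, the single Cyp1a2_C library carried Cyp1a2-CreERT2 and Ctnnb1(ex3)fl/+ with no Arid2 allele in its label, and Gls2_CA tumours (9 libraries of 5 animals) carried Gls2-CreERT2, Ctnnb1(ex3)fl/+ and Arid2fl/fl. The 6 WT livers came from C57BL/6J mice given an AAV that carries Cre and kept on normal chow for up to 12 months. CreERT2 is a recombinase that acts only when tamoxifen is present. Cyp1a2 is a gene of hepatocytes near the central vein and Gls2 a gene of hepatocytes near the portal vein. The Ctnnb1 allele loses the exon that marks beta-catenin for degradation, and Arid2 encodes a subunit of a chromatin remodelling complex. All tumours share the Ctnnb1 allele, so no comparison here separates it from the rest of the model. Strain, tamoxifen, virus and sequencing depth all differed between tumours and WT livers and cannot be told apart from the tumour itself.

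In the Hippo pathway, the kinases Mst1 and Mst2 activate Lats1 and Lats2, which phosphorylate Yap1 and Wwtr1 and so keep them out of the nucleus. Unphosphorylated Yap1 and Wwtr1 enter the nucleus, bind Tead factors and switch on genes such as Ctgf, Cyr61, Ankrd1 and Amotl2. In the liver the pathway limits organ size and hepatocyte proliferation, and forced Yap1 activity pushes hepatocytes towards a bile duct fate. Much of this control acts on protein location and phosphorylation, which RNA counts do not measure.

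Tead factors recognise the letters CATTCC, or GGAATG on the other strand. The promoter windows of the target genes are shown here because the results turn on whether those genes followed Yap1 and Tead1. Each window runs from 250 bases before to 50 bases after the RefSeq transcript start on GRCm38.p6, with the motif in capitals. Ankrd1 lies at chr19:36119795-36120094 on the minus strand and has the motif at -210 and -123 from the start. Cyr61 lies at chr3:145649936-145650235 on the minus strand with the motif at -103, and Amotl2 at chr9:102717554-102717853 on the plus strand with the motif at -65.
Ankrd1: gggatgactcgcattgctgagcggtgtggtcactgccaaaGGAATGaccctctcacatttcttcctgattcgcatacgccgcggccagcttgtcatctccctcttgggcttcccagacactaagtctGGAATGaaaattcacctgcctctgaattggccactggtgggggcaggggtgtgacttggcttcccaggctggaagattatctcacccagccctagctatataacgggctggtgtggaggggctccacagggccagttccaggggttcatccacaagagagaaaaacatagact
Cyr61: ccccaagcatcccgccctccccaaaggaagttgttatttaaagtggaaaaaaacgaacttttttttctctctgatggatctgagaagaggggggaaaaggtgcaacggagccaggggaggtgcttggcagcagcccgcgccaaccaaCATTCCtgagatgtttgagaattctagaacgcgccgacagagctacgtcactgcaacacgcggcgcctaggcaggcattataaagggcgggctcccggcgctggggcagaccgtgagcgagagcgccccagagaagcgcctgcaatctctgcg
Amotl2: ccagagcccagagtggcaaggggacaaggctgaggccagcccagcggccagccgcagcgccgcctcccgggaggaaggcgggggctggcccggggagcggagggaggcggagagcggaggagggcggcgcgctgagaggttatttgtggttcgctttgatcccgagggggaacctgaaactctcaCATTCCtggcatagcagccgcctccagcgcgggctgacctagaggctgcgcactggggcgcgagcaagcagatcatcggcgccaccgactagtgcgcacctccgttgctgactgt

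The other sites found are given with 10 bases on each side, since they lie at the transcript starts of the regulators and the receptor among the 10 genes. They begin at -233 for Axl on the minus strand of chromosome 7, -141 for Yap1 on the minus strand of chromosome 9, -136 for Wwtr1 on the minus strand of chromosome 3 and 4, just after the start, for Lats2 on the minus strand of chromosome 14.
Axl: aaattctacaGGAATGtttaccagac
Yap1: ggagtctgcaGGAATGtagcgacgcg
Wwtr1: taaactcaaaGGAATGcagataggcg
Lats2: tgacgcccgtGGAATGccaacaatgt

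Of the 8 genes with a window, 7 held the motif in at least 1 window, and Lats1 did not. Over all 32851 windows 14.7% held it, and of 27025 genes 16.6% had a window that did. Tead1 and Ctgf had no matched window and are named only. A match of 6 letters describes the sequence and says nothing of binding in these livers.

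The tumour libraries held 36992043 to 49254470 counts and the WT libraries 13486530 to 16975288, with no overlap, and mitochondrial genes took 1.43% to 6.73% of counts in tumours against 8.90% to 11.1% in WT livers. Levels are CPM, read counts divided by the TMM-scaled size of the library, and libraries with the same animal number were summed before any test. Summed CPM of 10 hepatocyte marker genes ranged from 11811 to 51230 in Cyp1a2_CA and from 4840 to 29077 in Gls2_CA, against 85003 to 106278 in WT, and stood at 522 in the Cyp1a2_C library. Ttn, which encodes the muscle protein titin, exceeded 1000 CPM in 4 tumour libraries, those of animals CAB44 and CAB225 in Cyp1a2_CA, CB6 in Cyp1a2_C and GAB235 in Gls2_CA, called Ttn-high here. Tumours and livers were sequenced in bulk, so fewer cells of a type and less RNA per cell cannot be told apart.

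Against WT livers, the tumours of both drivers had more Yap1, Wwtr1, Tead1 and Axl transcript and less Lats1, while the 3 best known targets, Ctgf, Cyr61 and Ankrd1, and also Amotl2, did not pass the test in either comparison. Tead1 stood at 6.03 times the WT level in Cyp1a2_CA and 9.06 times in Gls2_CA in the fitted model, and Yap1 at 2.91 times in Cyp1a2_CA and 2.40 times in Gls2_CA. In Cyp1a2_CA that order depended on the fit: Yap1 was above Tead1, at log2 fold changes of 1.47 and 1.22, without the Ttn-high libraries, and at 1.43 and 1.25 with limma-voom quality weights. In Cyp1a2_CA, 5 of the 10 genes rose and 1 fell, and in Gls2_CA, where Ankrd1 was too low to be tested, 4 of 9 rose and 1 fell. Large shares of all genes moved too: 38.3% of 16841 tested genes rose and 32.7% fell in Cyp1a2_CA, and 39.2% of 14976 rose and 34% fell in Gls2_CA. The median log2 fold change of the 10 genes was 0.60 beside 0.17 over all tested genes in Cyp1a2_CA, and that of the 9 genes was 0.48 beside 0.14 in Gls2_CA. Both comparisons use the same 6 WT livers, so their values stand side by side and are not separate support for each other.

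**Figure D1:**
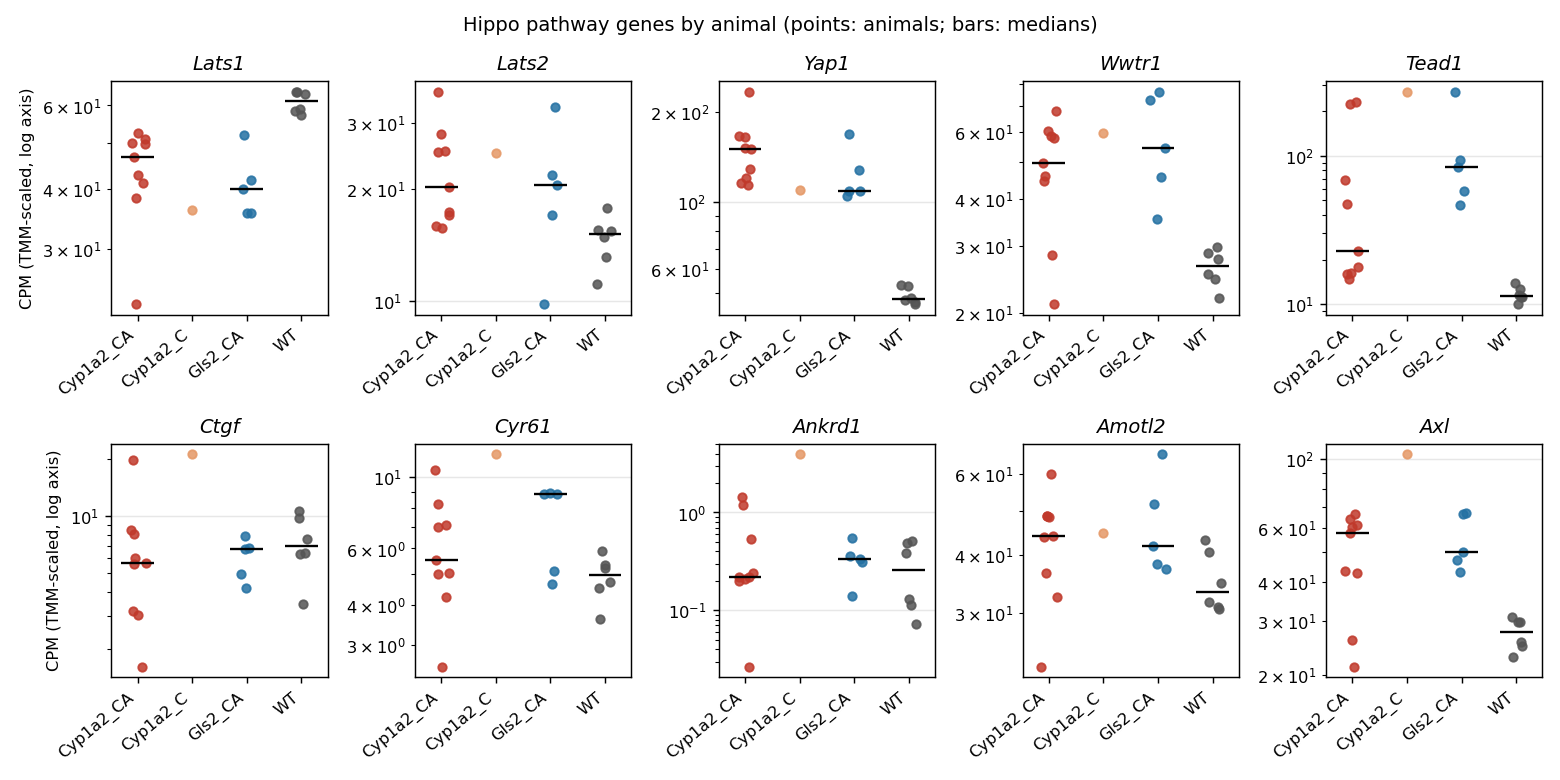
TMM-scaled CPM of the 10 genes (log axes) in each animal of Cyp1a2_CA (9), Cyp1a2_C (1), Gls2_CA (5) and WT (6), with points for animals and bars for group medians. Yap1 and Tead1 lie above WT and Lats1 below WT in every tumour animal, whereas Ctgf, Cyr61 and Ankrd1 overlap WT.

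Lats1 and Lats2 are the kinases that hold Yap1 and Wwtr1 in the cytoplasm. Lats1 (chr10:7681214-7716460, plus strand, GRCm38 here and below) ranged from 22.9 to 52.4 CPM with a median of 46.7 in the 9 Cyp1a2_CA animals. In Gls2_CA it stood at 35.6, 35.6, 51.9, 41.7 and 40.04 CPM. The 6 WT livers ran from 57.4 to 64.2 CPM with a median of 61.2. Every tumour animal therefore lay below every WT liver, an arrangement shown by 20.8% of tested genes in Cyp1a2_CA and 26% in Gls2_CA. For Lats1 the log2 fold change was -0.55 (SE 0.145, edgeR adjusted p = 0.0031) in Cyp1a2_CA and -0.66 (SE 0.132, edgeR adjusted p = 0.00076) in Gls2_CA. The Cyp1a2_C library, at 36.1 CPM, was also below all WT livers, and Lats1 was the gene of the 10 for which that library did not exceed the highest WT liver.

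Lats2 (chr14:57689662-57758388, minus strand) went the other way with a smaller margin. Its levels ran from 15.6 to 36.5 CPM with a median of 20.2 in Cyp1a2_CA and were 9.79, 17.02, 33.3, 21.8 and 20.5 CPM in Gls2_CA, beside 11.1 to 17.7 CPM with a median of 15.1 in WT. The groups overlapped, with 5 of 9 Cyp1a2_CA animals and 3 of 5 Gls2_CA animals above the highest WT liver. It rose in Cyp1a2_CA by a log2 fold change of 0.54 (SE 0.200, edgeR adjusted p = 0.024) and did not pass in Gls2_CA at 0.42 (SE 0.269, edgeR adjusted p = 0.18). That call was lost when the Ttn-high libraries were left out, at 0.47 (edgeR adjusted p = 0.058). It was also lost without WT replicate 1, at 0.47 (edgeR adjusted p = 0.058), and gained in Gls2_CA without GAB18, at 0.61 (edgeR adjusted p = 0.023). Per kilobase of exon, Lats1 averaged 6.02 CPM and Lats2 3.20 CPM in Cyp1a2_CA, 5.61 and 2.94 CPM in Gls2_CA, and 8.37 and 2.10 CPM in WT, so on this scale Lats1 was the more abundant kinase in every group. Lats2 shares 2955 exon bases with the gene model Gm49361 on the same strand, which has no row in the table, so reads of the shared stretch may have been dropped or assigned to Lats2.

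Yap1, the coactivator that gives the pathway its output, separated tumours from WT livers completely. In Cyp1a2_CA it ran from 114 to 233 CPM with a median of 151, and in Gls2_CA it stood at 109, 128, 168, 105 and 109 CPM. WT livers held 45.9 to 53.2 CPM with a median of 47.7. All 14 tumour animals lay above all 6 WT livers, as did the Cyp1a2_C library at 109.8 CPM, and 23.4% of tested genes showed such an arrangement in Cyp1a2_CA and 29.9% in Gls2_CA. Yap1 rose by a log2 fold change of 1.54 (SE 0.157, edgeR adjusted p = 3.1e-07) in Cyp1a2_CA and 1.26 (SE 0.153, edgeR adjusted p = 1.5e-05) in Gls2_CA. Yap1 lies at chr9:7931999-8004596 on the minus strand and shares 116 exon bases with the antisense model Gm20416, which is also without a row of its own.

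Wwtr1 (chr3:57455649-57575910, minus strand), the paralogue of Yap1, rose less. Its levels ran from 21.1 to 67.8 CPM with a median of 49.5 in Cyp1a2_CA and were 35.3, 76.4, 72.7, 45.6 and 54.2 CPM in Gls2_CA, against 21.9 to 29.8 CPM with a median of 26.6 in WT. All 5 Gls2_CA animals exceeded WT, an arrangement shown by 29.9% of tested genes. In Cyp1a2_CA 7 of 9 did, CAB145 fell inside the WT range and CAB52 was below the lowest WT liver. The log2 fold change was 0.80 (SE 0.220, edgeR adjusted p = 0.0043) in Cyp1a2_CA and 1.03 (SE 0.200, edgeR adjusted p = 0.00062) in Gls2_CA. Per kilobase of exon, Yap1 averaged 16.2 CPM and Wwtr1 10.1 CPM in Cyp1a2_CA and 13.4 and 11.9 CPM in Gls2_CA. In WT livers the pair stood at 5.29 CPM for Yap1 and 5.52 CPM for Wwtr1 per kilobase.

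Tead1 (chr7:112679318-112906807, plus strand) is the DNA-binding partner of both coactivators. It ran from 14.8 to 229.6 CPM with a median of 22.7 in Cyp1a2_CA and stood at 83.5, 93.1, 269, 57.6 and 46.7 CPM in Gls2_CA, beside 10.03 to 13.9 CPM with a median of 11.3 in WT. Every tumour animal was again above every WT liver, as for 23.4% of tested genes in Cyp1a2_CA and 29.9% in Gls2_CA, but by very different margins. The lowest Cyp1a2_CA animal, CAB52, was just above the highest WT liver. Tead1 rose by a log2 fold change of 2.59 (SE 0.728, edgeR adjusted p = 0.0049) in Cyp1a2_CA and 3.18 (SE 0.435, edgeR adjusted p = 4.0e-05) in Gls2_CA.

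The high Tead1 values sat in the libraries with high Ttn. In those 4 libraries Tead1 was 223 to 281 CPM, in the other 16 tumour libraries 13.3 to 90.5 CPM with a median of 35.2, and in WT libraries 10.03 to 13.8 CPM. Ttn in the same 4 libraries was 8668 to 30171 CPM, against at most 92.9 CPM in the other tumour libraries. The highest other tumour library therefore had less than every Ttn-high library for both genes. Without the Ttn-high libraries the log2 fold change of Tead1 was 1.22 (edgeR adjusted p = 0.0078) in Cyp1a2_CA and 2.46 (edgeR adjusted p = 7.0e-08) in Gls2_CA, so the call held in both. The part of whatever sets these libraries apart in the Tead1 result was not tested. Over the 14 tumour animals the coefficient of variation of Tead1 was 102%, at the 91.8th percentile of 10489 genes, while Yap1 varied by 25.1% and Lats1 by 19.3%.

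**Figure D2:**
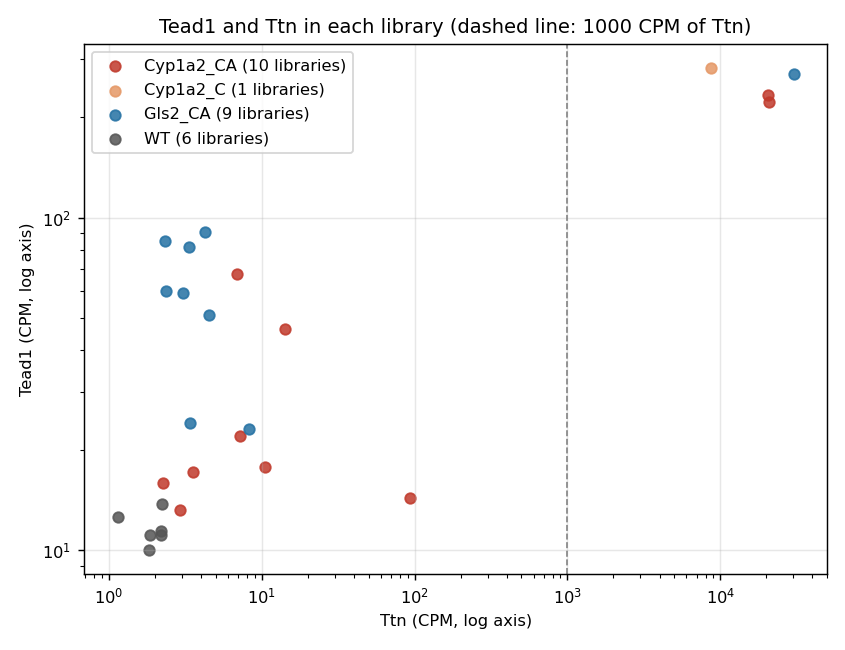
Tead1 against Ttn (CPM, both axes log) in each of the 26 libraries by group, with a dashed line at 1000 CPM of Ttn. The 4 libraries right of the line hold 223 to 281 CPM of Tead1, and the other 16 tumour libraries reach at most 90.5 CPM.

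Libraries from the same animal number differed as well. The 3 libraries of GAB242 held 23.1, 60.4 and 85.1 CPM of Tead1 and those of GAB294 24.2, 50.9 and 59.5 CPM, so the highest was 3.68 and 2.46 times the lowest. Yap1 differed by 1.19 times among the GAB242 libraries and 1.65 times among those of GAB294. The labels do not say whether such libraries came from separate tumours.

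The secreted proteins Ctgf and Cyr61 are the targets most often read as Yap1 output. Ctgf (chr10:24595442-24598683, plus strand) ran from 1.62 to 19.6 CPM with a median of 5.64 in Cyp1a2_CA and was 4.97, 6.75, 7.87, 6.83 and 4.20 CPM in Gls2_CA, while WT livers had 3.44 to 10.7 CPM with a median of 6.96. The groups overlapped throughout: in Cyp1a2_CA 3 animals were below the lowest WT liver and 1, CAB44, above the highest. The log2 fold change was -0.17 (SE 0.441, edgeR adjusted p = 0.74) in Cyp1a2_CA and -0.35 (SE 0.286, edgeR adjusted p = 0.29) in Gls2_CA. The highest Ctgf value of the series, 21.1 CPM, was in the Cyp1a2_C library. Ctgf shares 665 exon bases with the antisense model Gm15270, and whether the counting used strand is not given in the sources used here.

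Cyr61 (chr3:145646976-145649981, minus strand) was as low. It ran from 2.57 to 10.5 CPM with a median of 5.53 in Cyp1a2_CA and stood at 4.65, 8.84, 5.09, 8.94 and 8.87 CPM in Gls2_CA, beside 3.61 to 5.88 CPM with a median of 4.96 in WT. In Gls2_CA 3 of 5 animals exceeded all WT livers and the other two lay among them. The log2 fold change was 0.26 (SE 0.253, edgeR adjusted p = 0.37) in Cyp1a2_CA and 0.48 (SE 0.212, edgeR adjusted p = 0.058) in Gls2_CA. The Gls2_CA value lies near the threshold: in 13 other fits the edgeR, DESeq2 or limma adjusted p ran from 0.0021 to 0.31 and passed in 5, and without GAB18 the log2 fold change was 0.62 (edgeR adjusted p = 0.013).

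Ankrd1 (chr19:36111961-36120099, minus strand) encodes a nuclear ankyrin repeat protein best known from heart muscle, and its liver level was close to the limit of detection. It ran from 0.0265 to 1.43 CPM with a median of 0.221 in Cyp1a2_CA and stood at 0.544, 0.357, 0.336, 0.139 and 0.314 CPM in Gls2_CA, against 0.0717 to 0.516 CPM in WT, where all 6 livers together gave 27 counts. 1 of the 3 libraries of GAB242 had 0 counts, which allows a level of up to 0.0764 CPM (3 counts, counting error only). The Cyp1a2_CA value of 0.66 (SE 0.721, edgeR adjusted p = 0.42) did not pass the test. The Cyp1a2_C library had 218 counts, or 3.92 CPM, the highest level of the series.

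Amotl2 (chr9:102716672-102733418, plus strand) encodes a junction protein that binds Yap1 and is also its target. It ran from 22.9 to 60.2 CPM with a median of 44.0 in Cyp1a2_CA and was 37.4, 51.7, 66.3, 38.2 and 41.9 CPM in Gls2_CA, beside 30.6 to 43.2 CPM with a median of 33.2 in WT. Groups overlapped in both comparisons. The log2 fold change was 0.21 (SE 0.181, edgeR adjusted p = 0.31) in Cyp1a2_CA and 0.34 (SE 0.188, edgeR adjusted p = 0.12) in Gls2_CA.

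Axl (chr7:25757273-25788705, minus strand), a receptor tyrosine kinase for the ligand Gas6, was the target that rose. Its levels ran from 21.3 to 66.7 CPM with a median of 57.7 in Cyp1a2_CA and were 47.3, 66.4, 43.1, 67.3 and 50.1 CPM in Gls2_CA, while WT livers had 22.9 to 30.9 CPM with a median of 27.7. All 5 Gls2_CA animals and 7 of 9 Cyp1a2_CA animals exceeded WT, and CAB145 was below the lowest WT liver. Such full separation in Gls2_CA was shown by 29.9% of tested genes. Axl rose by a log2 fold change of 0.78 (SE 0.232, edgeR adjusted p = 0.0071) in Cyp1a2_CA and 0.91 (SE 0.140, edgeR adjusted p = 9.8e-05) in Gls2_CA. Axl is also a gene of macrophages and mesenchymal cells. The summed level of 11 macrophage markers was 78.0 to 259 CPM in Cyp1a2_CA and 130 to 254 CPM in Gls2_CA, below the 314 to 390 CPM of WT livers, and none of the 11 was at 0 in any group. Of these markers 0 rose and 6 fell in Cyp1a2_CA, and in Gls2_CA 2 rose, the broad macrophage genes Csf1r and Cd68, and 7 fell. Shares of all tested genes that rose and fell were 38.3% and 32.7% in Cyp1a2_CA and 39.2% and 34% in Gls2_CA. The stellate cell and fibroblast markers summed to 246 to 942 CPM in Cyp1a2_CA and 300.1 to 366 CPM in Gls2_CA, against 505 to 648 CPM in WT. The part of these cells in the Axl result was not tested.

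The size of several of these changes depended on how exon length and base composition were handled. An offset fitted to the exon length and GC content of each gene lowered Yap1 to 0.67 in Cyp1a2_CA (edgeR adjusted p = 0.00076) and 0.40 in Gls2_CA (edgeR adjusted p = 0.0083), and both calls held. Tead1 went to 1.01 in Cyp1a2_CA (edgeR adjusted p = 0.12), where the call was lost, and to 1.74 in Gls2_CA (edgeR adjusted p = 0.00042), where it held. Lats1 moved further down, to -1.12 and -1.21, and Lats2 went to -0.19 and -0.36 and passed in neither. Axl dropped to 0.30 in Cyp1a2_CA (edgeR adjusted p = 0.21), a lost call, and 0.45 in Gls2_CA (edgeR adjusted p = 0.020). Amotl2 turned lower in both, at -0.61 (edgeR adjusted p = 0.0011) and -0.54 (edgeR adjusted p = 0.0052), and Cyr61 in Gls2_CA reached 0.88 (edgeR adjusted p = 0.0021). Wwtr1 was least affected of the risers, at 0.65 in Cyp1a2_CA and 0.96 in Gls2_CA, both still called. Yap1 and Tead1 have the most exon bases of the 10, at 9257 and 13570, and Cyr61 the fewest, at 2019. GC content is highest for Amotl2, at 56.7%, and lowest for Lats1, at 43.0%. The offset was fitted to both features together, and the part of each was not tested.

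Between the tumours of the Cyp1a2 and Gls2 drivers, none of the 10 genes passed the test. The Cyp1a2_CA over Gls2_CA log2 fold change ran from -0.59 for Tead1 (SE 0.768) to 0.52 for Ankrd1 (SE 0.701), with 0.28 for Yap1 (SE 0.193), -0.23 for Wwtr1 (SE 0.271) and 0.11 for Lats1 (SE 0.183). All 10 had an edgeR adjusted p of 1.00, and at an unadjusted p under 0.05 the count was 0. For 0 of the 10 did the animals of the tumour groups separate, against 0.0409% of all tested genes with every Cyp1a2_CA animal above every Gls2_CA animal and 0.0467% with every one below. Across all 17129 genes 0% were called higher or lower by edgeR (554 at an unadjusted p under 0.05), and DESeq2 called 7 higher and 12 lower and limma-voom with quality weights 0 and 10. The standard errors leave room for differences of the size seen for Tead1 and Ankrd1, so a missed threshold does not show equal levels. Tead1 covered 14.8 to 229.6 CPM in Cyp1a2_CA and 46.7 to 269 CPM in Gls2_CA. Over all animals, 5 of 9 Cyp1a2_CA animals were below the lowest Gls2_CA animal for Tead1. Without the Ttn-high libraries its log2 fold change was -1.27 (edgeR adjusted p = 0.79).

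Some extreme values of single tumours coincided with a shift of the whole chromosome that carries the gene. This was noticed after the values were seen. For each of 19 autosomes and 14 tumour animals, the median log2 deviation of all its expressed genes from the 14-animal median was taken, leaving out the 10 genes themselves. Of these 266 medians 7 were 0.5 or more from 0. Lats2 lies on chromosome 14 and was lowest of all in GAB18, at -1.05 from its own 14-animal median. There the 351 other genes of chromosome 14 had a median of -0.64, the lowest of the 14 animals. The highest Lats2 value, 0.84 in CAB145, came with the highest median of that chromosome, 0.50. Lats1 on chromosome 10 was lowest in CAB228, at -0.88, where that chromosome's median was -0.53. In CAB52 the chromosome 10 median was as low, -0.54, with Lats1 at -0.14.

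CAB52 showed several such shifts together. Its chromosome 3 median was -0.66, and the chromosome 3 genes Wwtr1 and Cyr61 were there at their lowest of all tumour animals, -1.29 and -1.26. Its chromosome 9 median was 0.31, the highest of the 14, and Yap1 on chromosome 9 was at its highest, 0.86. The one Wwtr1 value under the WT range and the highest Yap1 value of the series thus belonged to the same tumour. Tead1 on chromosome 7 did not follow this pattern: its chromosome's medians were -0.064, -0.041 and -0.017 in GAB235, CAB225 and CAB44, where it was highest, and 0.31 in CAB52, where it was lowest. Axl, also on chromosome 7, was at -0.30 in CAB52, and Amotl2 on chromosome 9 was at 0.15, rank 10 of 14 from the lowest. Ctgf on chromosome 10 was at 0.46 in CAB228 and -0.063 in CAB52, where that chromosome's medians were -0.53 and -0.54. Subtracting the chromosome's median lowered the SD over 14 animals for 7 of the 10 genes, for example to 0.24 for Yap1 (0.33 before), 0.24 for Lats1 (0.32 before) and 0.38 for Lats2 (0.50 before). The fall was small for Axl, to 0.497 (0.509 before), and Amotl2, to 0.352 (0.383 before). For Tead1, Ankrd1 and Ctgf the subtraction raised the SD. How often it lowers the SD over all genes was not computed. DNA copy number was not measured, and the part of chromosome-wide shifts in these values was not tested.

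**Figure D3:**
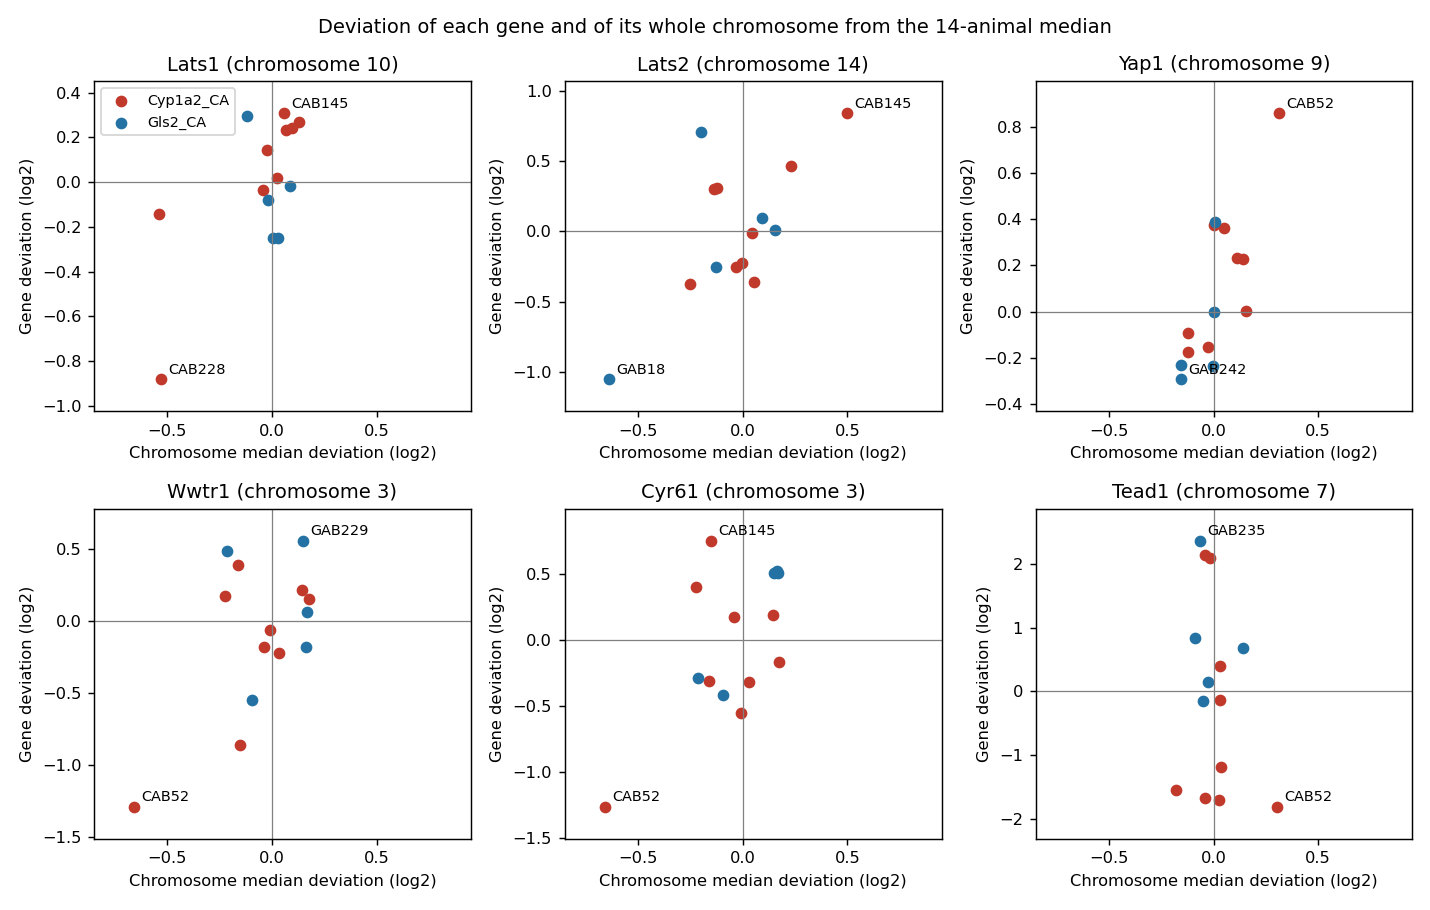
Deviation of 6 of the genes (vertical axes, log2) against the median deviation of all other expressed genes of the same chromosome (horizontal axes, log2) in the 14 tumour animals, both from the 14-animal median, with the lowest and highest animal of each gene named. The lowest Lats1, Lats2, Wwtr1 and Cyr61 animals sit at the left with a low chromosome median, and the Tead1 extremes in the Ttn-high animals do not.

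The genes whose levels ran closest to each member over the 14 tumour animals were taken by Pearson correlation of log2 CPM among 9988 genes, as a description. For Yap1 they were Npat, Qrich1, Cep57, Ryk and Ddx10, with r from 0.91 to 0.93, and all 5 lie on chromosome 9 with Yap1, where 5.65% of the genes searched lie. For Cyr61 they were Ampd2, Cth, Fzd7, Agap2 and S100a13 (r from 0.85 to 0.90), of which 3, Ampd2, Cth and S100a13, lie with it on chromosome 3, beside 5.03% of such annotated genes. For Tead1 they were Slc25a36, Fgf11, Ctnna2, Smarcd3 and Fgfrl1 (r from 0.91 to 0.94), and without the Ttn-high animals r stayed between 0.81 and 0.90 in the other 11. For Axl they were Laptm5, Csf1r, C1qc, C1qa and Fam49a (r from 0.90 to 0.94), of which Csf1r, C1qc and C1qa are macrophage genes. For Ctgf they were Lrrc8c, Rab3il1, Fndc1, Amotl2 and Ncam1 (r from 0.80 to 0.84), which includes 1 of the other targets, and without the Ttn-high animals r ran from 0.63 to 0.80. For Ankrd1 they were Heg1, Ltbp2, Vill, Zfp518b and Emilin1 (r from 0.82 to 0.91), on at most 1.43 CPM of Ankrd1 itself. For each of Tead1, Ankrd1, Axl and Ctgf, 0 of the 5 lie on the member's own chromosome. The 14 tumour animals share 2 genotype groups, the Ttn-high split and chromosome-wide shifts, and none of the lists was tested.

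Upstream of Lats1 and Lats2, the pathway's other genes moved in both directions. Of 22 upstream kinases and scaffolds, 12 rose and 7 fell in Cyp1a2_CA, with a median log2 fold change of 0.59, and likewise 12 and 7 in Gls2_CA, with a median of 0.57. Over all tested genes 38.3% rose and 32.7% fell in Cyp1a2_CA, with a median of 0.17, and 39.2% rose and 34% fell in Gls2_CA, with a median of 0.14. Map4k4, a kinase that can act on Lats beside the Mst kinases, averaged 832 CPM in Cyp1a2_CA and 852 CPM in Gls2_CA, against 13.7 CPM in WT, a log2 fold change of 5.87 (edgeR adjusted p = 7.7e-10) and 5.89 (edgeR adjusted p = 2.3e-08). Fat1, an atypical cadherin, rose by 3.73 in Cyp1a2_CA and 3.28 in Gls2_CA on the log2 scale. Nf2, the scaffold Merlin, rose by 2.25 and 2.44, and Stk3, which encodes Mst2, by 1.86 and 2.02. The Lats coactivator Mob1b fell by 2.21 in Cyp1a2_CA and 2.11 in Gls2_CA, the scaffold Wwc1 (Kibra) by 1.69 and 1.73, and Sav1, the partner of the Mst kinases, by 0.97 and 1.01. When exon length and GC content were offset, 6 were higher and 10 lower in Cyp1a2_CA, and 8 higher and 10 lower in Gls2_CA. In the same fits 5111 of all 15178 genes were higher and 5041 lower in Cyp1a2_CA, and 4826 of 13820 were higher and 4754 lower in Gls2_CA.

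Of the 7 other Tead and Vgll genes, 5 could be tested, and 2 rose in Cyp1a2_CA and 3 in Gls2_CA, with 0 falling. For all tested genes, 38.3% rose and 32.7% fell in Cyp1a2_CA, and 39.2% rose and 34% fell in Gls2_CA. When exon length and GC content were offset, 5111 of all 15178 genes rose and 5041 fell in Cyp1a2_CA. In Gls2_CA 4826 of 13820 rose and 4754 fell with the offset. Of this list 1 rose and 1 fell in Cyp1a2_CA and 2 rose and 1 fell in Gls2_CA in those fits. The gene that fell there was Tead3, a further DNA-binding partner of Yap1, at -0.97 (edgeR adjusted p = 0.00011) in Cyp1a2_CA and -0.95 (edgeR adjusted p = 0.00063) in Gls2_CA, beside -0.081 and 0.0091 without the offset. Vgll4, a protein that competes with Yap1 for Tead binding, rose by 1.52 (edgeR adjusted p = 3.4e-05) in Cyp1a2_CA and 1.40 (edgeR adjusted p = 0.0013) in Gls2_CA, and by 0.87 and 0.69 with the offset. Tead2 averaged 5.47 ± 9.06 CPM in Cyp1a2_CA and 3.95 ± 4.92 CPM in Gls2_CA, against 1.17 ± 0.363 CPM in WT (SD, n = 9, 5 and 6), with a log2 fold change of 2.19 (edgeR adjusted p = 0.052) in Cyp1a2_CA, which did not pass, and 1.72 (edgeR adjusted p = 0.027) in Gls2_CA, which did. Both lie at the threshold: leaving out 1 animal brought the call in 7 of 15 fits in Cyp1a2_CA (CAB145, CAB170, CAB26, CAB28, CAB52, CAB228 or CAB239) and lost it in 4 of 11 in Gls2_CA (GAB235 or WT replicate 1, 3 or 5). Without the Ttn-high libraries Tead2 was at -0.056 in Cyp1a2_CA and 0.48 in Gls2_CA and passed in neither, nor did it pass with the offset, at 1.36 and 0.95. Vgll3 rose by 1.84 and 1.47, and the Cyp1a2_CA call was lost without CAB44 (1.13, edgeR adjusted p = 0.054), without WT replicate 3 (1.62, edgeR adjusted p = 0.053) and without WT replicate 5 (1.74, edgeR adjusted p = 0.053). It was also lost without the Ttn-high libraries (1.03, edgeR adjusted p = 0.079) and with the offset (1.29, edgeR adjusted p = 0.090). Not counting fits that left out 1 animal, the Vgll3 call in Gls2_CA held in 8 alternative fits and was lost in 2. Vgll1 had 0 counts in all 26 libraries, and Vgll2 had 61 counts in Cyp1a2_CA and 0 in the other groups.

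Of 16 further genes often listed as Yap1 and Wwtr1 targets, 14 could be tested, and 8 rose and 3 fell in each comparison, with a median of 0.96 in Cyp1a2_CA and 1.13 in Gls2_CA. The shares of all tested genes that rose and fell, 38.3% and 32.7% in Cyp1a2_CA and 39.2% and 34% in Gls2_CA, and their medians of 0.17 and 0.14 stand beside these values. Asap1, which regulates Arf GTPases, rose by 3.63 (edgeR adjusted p = 1.5e-10) in Cyp1a2_CA and 3.58 (edgeR adjusted p = 1.4e-08) in Gls2_CA. Crim1, a transmembrane protein, rose by 0.77 and 1.49, and its call in Cyp1a2_CA was lost with the offset for exon length and GC content (0.27, edgeR adjusted p = 0.10). The growth factor gene Tgfb2 rose by 4.36 and 4.46, and by 1.96 and 3.07 without the Ttn-high libraries. F3, the coagulation tissue factor, fell by 2.65 and 2.11. Fjx1 and Foxf2 were too low to be tested. When exon length and GC content were offset, 6 rose and 5 fell in Cyp1a2_CA, and 5 rose and 5 fell in Gls2_CA. Of all 15178 genes 5111 rose and 5041 fell with the offset in Cyp1a2_CA, and of 13820 in Gls2_CA 4826 rose and 4754 fell.

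**Figure D4:**
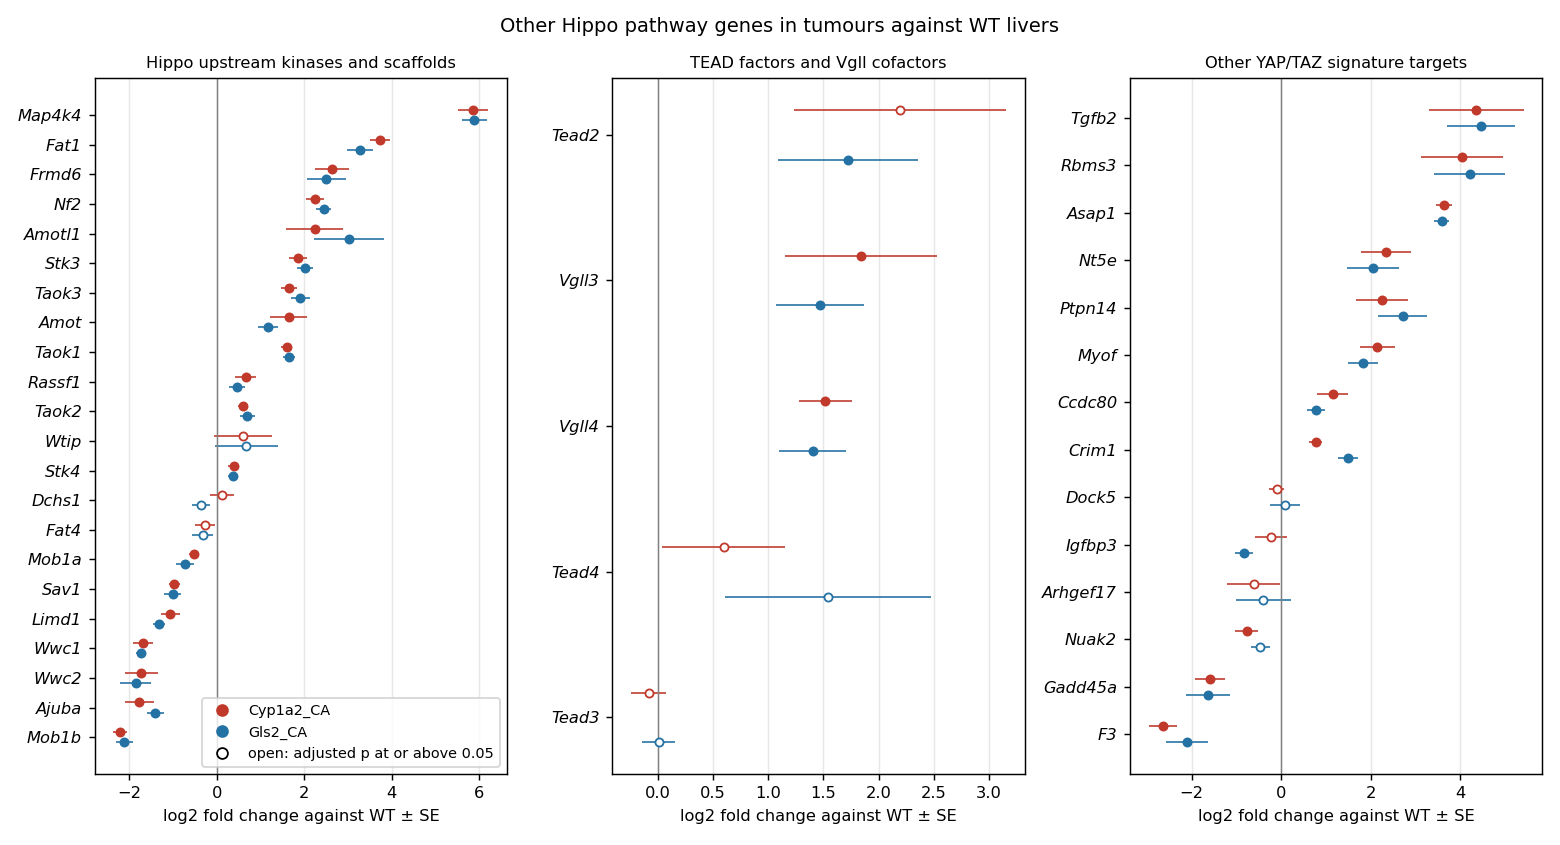
Log2 fold change ± SE against WT of 22 upstream genes, 5 Tead and Vgll genes and 14 signature targets in Cyp1a2_CA (red) and Gls2_CA (blue), with open symbols where the adjusted p was 0.05 or above. Map4k4 stands highest and Mob1b lowest among the upstream genes, and F3 lowest among the targets.

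Genes of the bile duct fate that Yap1 can impose moved in both directions. Of 8, 2 rose and 1 fell in Cyp1a2_CA with a median of -0.30, and of 7 tested in Gls2_CA 3 rose and 1 fell with a median of 0.29. Among all tested genes the shares were 38.3% up and 32.7% down in Cyp1a2_CA and 39.2% and 34% in Gls2_CA. The medians of all genes were 0.17 and 0.14. Without the Ttn-high libraries 1 of the list rose and 3 fell of 7 tested in Cyp1a2_CA, and 2 rose and 2 fell of 7 in Gls2_CA. Without those libraries 6138 of all 16253 genes rose and 5774 fell in Cyp1a2_CA, and 6108 of 15130 rose and 5771 fell in Gls2_CA. The summed level of 8 cholangiocyte markers, among them Krt7, Krt19, Sox9 and Spp1 of the same list, was 54.2 to 211 CPM with a median of 161 in Cyp1a2_CA and 106 to 261 CPM with a median of 124 in Gls2_CA, against 48.3 to 79.0 CPM with a median of 61.9 in WT. Of these markers 3 rose, 0 fell and 5 were not called in Cyp1a2_CA, with a median log2 fold change of -0.38 despite the higher sum. Of 6 tested in Gls2_CA 3 rose, 1 fell and 2 were not called, with a median of 0.61. None of the 8 was at 0 in any group. The part of bile duct cells in these values was not tested. The receptor Notch2 fell by 1.59 (edgeR adjusted p = 2.8e-08) in Cyp1a2_CA and 1.40 (edgeR adjusted p = 8.5e-05) in Gls2_CA. The transcription factor gene Sox4 rose in both, averaging 6.96 CPM in Cyp1a2_CA and 7.31 CPM in Gls2_CA, against 1.68 CPM in WT. Not counting fits that left out 1 animal, the Sox4 call was lost in 1 alternative fit in each comparison. It held in 11 in Cyp1a2_CA and 12 in Gls2_CA. Spp1, which encodes osteopontin, rose by 1.09 (edgeR adjusted p = 0.039) in Cyp1a2_CA and 0.92 (edgeR adjusted p = 0.023) in Gls2_CA. Its call was lost in 9 of 15 fits that left out 1 animal in Cyp1a2_CA, each WT liver among them, and in 2 of 11 in Gls2_CA, without GAB229 or WT replicate 4. It was also lost with upper-quartile factors, at 0.87 (edgeR adjusted p = 0.090) in Cyp1a2_CA and 0.70 (edgeR adjusted p = 0.073) in Gls2_CA, and in Cyp1a2_CA without the Ttn-high libraries, at 0.50 (edgeR adjusted p = 0.19). Sox9 averaged 5.84 CPM in Cyp1a2_CA and 11.6 CPM in Gls2_CA, against 9.48 CPM in WT, and did not pass in either comparison, at log2 fold changes of -0.74 and 0.23. Without the Ttn-high libraries it was called lower in Cyp1a2_CA, at -2.03 (edgeR adjusted p = 0.0068), and was at -0.21 in Gls2_CA.

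Among relatives of the members, Wisp1, a CCN family gene like Ctgf and Cyr61, rose by 2.98 (edgeR adjusted p = 7.0e-07) in Cyp1a2_CA and 2.09 (edgeR adjusted p = 0.00035) in Gls2_CA. Of 3 other CCN genes tested in Cyp1a2_CA 2 rose and 1, Wisp3, fell, and in Gls2_CA only Wisp1 could be tested. Wisp3 lay near the filter on low counts: of 15 fits that left out 1 animal, 7 could test it, and it fell in each of those. Beside the count of CCN genes and the counts below, 38.3% of all tested genes rose and 32.7% fell in Cyp1a2_CA. In Gls2_CA the shares were 39.2% and 34%. Of the 4 ligands and sister receptors of Axl, Tyro3 rose in Cyp1a2_CA (2.55, edgeR adjusted p = 0.0089) and 0 fell there. In Gls2_CA 3 of the 4 could be tested, and Tyro3 was not among them. Pros1 fell in Gls2_CA (-0.51, edgeR adjusted p = 0.022), a call lost without WT replicate 5 (-0.46, edgeR adjusted p = 0.056). In Cyp1a2_CA Pros1 was at -0.48 (edgeR adjusted p = 0.098) and passed without CAB52 (-0.65, edgeR adjusted p = 0.014). Gas6, the ligand of Axl, was at 0.069 in Cyp1a2_CA and 0.12 in Gls2_CA and did not pass, with a sign that turned with the scaling (-0.16 and -0.11 with upper-quartile factors), nor did Mertk at -0.21 in both. Of 15 muscle ankyrin repeat and sarcomere genes, the family in which Ankrd1 is best known, 8 could be tested in Cyp1a2_CA, where 4 rose and 1, Des, fell, and 6 in Gls2_CA, where 4 rose and Des fell. Myom1 rose by 3.15 in Cyp1a2_CA and 3.55 in Gls2_CA, and Nebl by 6.04 in Cyp1a2_CA. Without the Ttn-high libraries Nebl was at 2.44, and with the offset for exon length and GC content Myom1 in Cyp1a2_CA was at 1.93.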

How the data were processed

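Frozen fragments gave the RNA, and Nugen Ovation libraries were made from it, per the labels' protocols, 20 from tumours and 6 from WT livers. The authors deposited raw counts of reads per gene symbol in 1 table, with no normalization. The build was mm10, per the submitters' processing notes; the aligner, counter, annotation and strand setting were not stated in the labels or the table. Groups followed the genotype labels. Libraries whose titles share an animal number (8 libraries of 3 animals) were summed, which gave 9 Cyp1a2_CA, 5 Gls2_CA and 6 WT animals. That each number is 1 animal was read from the titles, and p-values cover only the spread between these numbers.

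Each pair of groups was fitted over all genes with edgeR 4.0.16 in R 4.3.3 (filterByExpr, TMM, robust quasi-likelihood test, Benjamini-Hochberg threshold 0.05), and the fits were tested on simulated data. CPM was computed from the deposited counts and TMM-scaled totals. The single Cyp1a2_C library entered no test. Alternatives used DESeq2 1.42.0, limma-voom (limma 3.58.1), other scalings, filters and replicate units, an offset for exon length and GC content (GENCODE M21, matched to 75.8% of symbols), thinning of tumour counts to WT depth, removal of Ttn-high libraries, and leaving out each animal. The 10 genes are always named. Other pathway genes were named by the 3 smallest p-values of each list in each comparison, of which those between the tumour groups, where 0 passed, are not described. A gene that this rule names is not reported here. Stk3, Sav1, Sox9, Csf1r and Cd68 were added after their values were seen. Likeness took the 5 highest Pearson correlations of log2 CPM (prior count 2) among genes averaging at least 5 CPM. The genes and lists were chosen with earlier results of these data known. Promoter windows came from RefSeq on GRCm38.p6. Limits from counts cover counting error only.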

Additional observations from a re-analysis of the deposited data

Results flagged for a closer look

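Within groups, 30 sets of animals were examined for 1 value far from the rest, of which chance gives about 1 in 20, and 4 were found. Yap1 reached 233 CPM in CAB52 among the Cyp1a2_CA animals, where the next animal had 167. Lats1 was lowest in CAB228 at 22.9 CPM, where the next lowest Cyp1a2_CA animal had 38.3. Ctgf reached 19.6 CPM in CAB44, where the next had 8.44. Tead1 reached 269 CPM in GAB235 among the Gls2_CA animals, where the next had 93.1. CAB44 and GAB235 are Ttn-high, and the chromosome-wide medians of CAB52 and CAB228 are given with Yap1 and Lats1.

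The Cyp1a2_C library, which entered no test, was above the highest WT liver for 9 of the 10 genes: Yap1 at 109.8 CPM, Wwtr1 at 59.4 CPM, Tead1 at 271 CPM, Lats2 at 25.0 CPM, Ankrd1 at 3.92 CPM, Amotl2 at 44.7 CPM, Axl at 104 CPM, Ctgf at 21.1 CPM and Cyr61 at 11.8 CPM. It is a single library with Ttn at 8668 CPM and hepatocyte markers at a summed 522 CPM, and its genotype cannot be told apart from these features.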

How the results depend on the processing

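Yap1, Wwtr1 and Lats1 kept their direction and call against WT in each alternative run, with log2 fold changes of 0.67 to 1.58, 0.58 to 0.90 and -1.12 to -0.46 in Cyp1a2_CA and 0.40 to 1.36, 0.80 to 1.17 and -1.21 to -0.52 in Gls2_CA. Of the 10 genes, 2 rose and 2 fell in Cyp1a2_CA and 5 rose and 2 fell in Gls2_CA when exon length and GC content were offset. In the same fits 5111 of all 15178 genes rose and 5041 fell in Cyp1a2_CA. For Gls2_CA 4826 of 13820 rose and 4754 fell. With the first library of each animal Amotl2 was called higher in Gls2_CA, at 0.42 (edgeR adjusted p = 0.044). With limma-voom quality weights 2 fell in Cyp1a2_CA, Ctgf being added at -0.76, where 6434 of all 16841 genes fell. Leaving out 1 animal gave 4 to 5 higher and 1 to 1 lower in Cyp1a2_CA, 4 to 6 higher and 1 to 1 lower in Gls2_CA, and 0 to 0 between the tumour groups. Lats2 in Cyp1a2_CA also lost its call with upper-quartile factors, at 0.32. Signs turned with the offset for Lats2 (-0.19 in Cyp1a2_CA, -0.36 in Gls2_CA), Amotl2 (-0.61 in Cyp1a2_CA, -0.54 in Gls2_CA) and Ctgf (0.022 in Cyp1a2_CA). In Cyp1a2_CA they turned with upper-quartile factors for Amotl2 (-0.013), with quality weights for Ankrd1 (-0.26) and Tead2 (-0.12), and without Ttn-high libraries for Tead2 (-0.056). In Cyp1a2_CA Gas6 turned with upper-quartile factors (-0.16) and without Ttn-high libraries (-0.13). In Gls2_CA Gas6 turned with upper-quartile factors (-0.11), quality weights (-0.070) and the first library of each animal (-0.14), and ran from -0.0014 to 0.24 with 1 animal left out. Of Cyp1a2_CA against Gls2_CA, where 0 of the 10 were called, Ctgf turned with quality weights (-0.27), the animal as a random effect (-0.055) and without Ttn-high libraries (-0.26), and with the first library of each animal Lats1 was -0.018 and Cyr61 0.020. Leaving out 1 animal there gave -1.05 to 0.11 for Tead1, -0.050 to 0.40 for Lats2, -0.21 to 0.047 for Amotl2 and -0.23 to 0.30 for Ctgf. The cause was not tested. Upper-quartile factors put the median of all genes at -0.049 in Cyp1a2_CA and -0.088 in Gls2_CA, where TMM had 0.17 and 0.14. The animal as a random effect gave no value for Cyp1a2_CA against WT. No paired analysis was possible because the labels link no animals across groups. Depth limits Ankrd1, with 27 counts in WT.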
